A study of Mus musculus with 2 samples.

Results

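The genes examined here encode the machinery that makes microRNAs (miRNAs) and loads them into the RNA-induced silencing complex (RISC). They were picked by symbol, as Drosha, Dgcr8, Xpo5, Dicer1, Tarbp2, Prkra and Ago1 to Ago4, with earlier results of these data known. All 10 were found under these symbols among the 23889 listed. RNA was sequenced from E14 cells, a line of mouse embryonic stem cells (mESCs) from a 19/Ola mouse, as the labels spell it. The cells were grown without feeders on gelatin, with serum and LIF, and were harvested 3 days after transfection with a control shRNA (genotype Normal) or a USP21 shRNA (genotype USP21 knockdown). Each group is 1 library, so no value below has an error and no difference has a replicate check. Which USP21 shRNA was used, and whether transfected cells were selected, is not given in the sources used here.

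In the canonical pathway, Drosha and its RNA-binding partner DGCR8 form the Microprocessor, which cuts hairpins out of primary miRNA transcripts in the nucleus. Exportin-5, the product of Xpo5, carries the hairpins to the cytoplasm, where Dicer, helped by TRBP (Tarbp2) or PACT (Prkra), trims them to short duplexes. One strand is then held by an Argonaute protein, which finds target mRNAs mainly through the seed, bases 2 to 8 of the miRNA. mESCs can live without Dgcr8 or Dicer1 but differentiate poorly, and shRNAs themselves pass through Exportin-5, Dicer and Argonaute.

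The miRNA genes themselves came first, because the members act on their products. The sequencing lists 1074 symbols of miRNA genes and their host transcripts, of which 1070 were at 0 FPKM (fragments scaled by transcript length and by the size of the library) in both libraries. The other 4 were host transcripts, and they are named here after their values were seen. Mir17hg, the primary transcript of the miR-17 to miR-92a cluster, had 34.1 FPKM in the control and 54.0 after USP21 knockdown. Mir22hg had 4.93 and 7.31 FPKM. Mir143hg and Mirlet7bhg lay at or below 0.115 FPKM in both libraries. Mir17hg was thus the highest of these host transcripts, at a log2 ratio of 0.66, USP21 shRNA over control, and of 0.63 after the correction for transcript length explained below. Host transcripts are not mature miRNAs, which were not measured.

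The mature miRNAs of this cluster lie between positions 115043684 and 115044496 of chromosome 14 (GRCm38.p6, plus strand). They are shown because Mir17hg carries them and because sites of miR-17, miR-18a and miR-19 recur in Ago1, Ago2 and Ago3. Such sites were not confined to these genes: Dicer1 also held sites of miR-18a and miR-19, and Dgcr8 a site of miR-19. Sites of miR-92a were found in Ago3 only, and Ago4 held none for this cluster. The shares of all genes with such sites are given below. The sequences are those of RefSeq, 5′ to 3′, with the seed in capitals, and they fall into 4 seed groups. Further copies of miR-19b and miR-92a lie on chromosome X.
miR-17-5p: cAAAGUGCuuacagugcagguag
miR-20a-5p: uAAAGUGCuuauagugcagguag
miR-18a-5p: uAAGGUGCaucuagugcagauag
miR-19a-3p: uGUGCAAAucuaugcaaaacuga
miR-19b-3p: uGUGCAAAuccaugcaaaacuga
miR-92a-3p: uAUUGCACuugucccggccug

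The miR-290 and miR-302 clusters are the miRNAs best known from mESCs, let-7 is the family that LIN28 holds back in them, and miR-103 and miR-107 are known to target Dicer1. Their representatives are shown for the same comparison, with the seed in capitals.
miR-291a-3p: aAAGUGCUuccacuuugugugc
miR-294-3p: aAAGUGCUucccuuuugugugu
miR-295-3p: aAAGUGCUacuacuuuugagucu
miR-302b-3p: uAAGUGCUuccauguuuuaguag
let-7a-5p: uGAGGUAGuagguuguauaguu
let-7g-5p: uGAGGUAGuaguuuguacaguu
miR-103-3p: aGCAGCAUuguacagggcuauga
miR-107-3p: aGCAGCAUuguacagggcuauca
The seeds of miR-17 and of miR-294 share the letters AAGUGC, set off by a single base. The genomic positions are on chromosome 7 for miR-294 (3220691 to 3220712, plus strand) and on chromosome 13 for the let-7a copy shown (48538239 to 48538260, minus strand).

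Usp21, the targeted gene, had 26.2 FPKM in the control and 3.49 after knockdown. Of 8 markers of embryonic stem cells, including Pou5f1, Sox2 and Nanog, the control values ran from 85.0 to 1849 FPKM and those with the USP21 shRNA from 76.5 to 1285, and all 8 were lower with the USP21 shRNA. Summed, they went from 4275 to 3217 FPKM, while all symbols listed summed to 613617 and 543206 FPKM. Of all genes of at least 1 FPKM in either library, 50.4% were higher. Scaling both libraries to the same sum would raise log2 ratios by about 0.18, more than the falls of Sox2 (-0.14) and Klf4 (-0.15). The count of 8 lower therefore depends on the scaling. Of 8 fibroblast markers, Lum was at 0 in both libraries and Col3a1 at 0.00432 and 0.00517 FPKM. The 2 of them that reached 1 FPKM went opposite ways, Thy1 at 17.3 and 5.29 FPKM and Pdgfra at 2.48 and 4.22 FPKM, and the sum of all 8 was 20.7 and 10.3 FPKM. The part of these shifts in the results below was not tested, and in bulk RNA fewer cells of a type and less RNA per cell cannot be told apart.

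The Microprocessor genes were among the better expressed members. Drosha, the nuclear RNase III (chromosome 15, 12824815 to 12935291, GRCm38, plus strand), had 45.03 FPKM in the control and 48.5 after knockdown. Dgcr8 (chromosome 16, 18253948 to 18289246, minus strand) had 20.9 and 25.3 FPKM. Drosha transcripts therefore outnumbered those of Dgcr8 per length by 2.15 times in the control library and by 1.92 times in the other. Differences are given from here on as log2 ratios, USP21 shRNA over control, of FPKM with 0.1 added to each value. The log2 ratio was 0.11 for Drosha and 0.27 for Dgcr8. The Dgcr8 transcript holds a hairpin of its own, Mir1306, on the same strand and inside its exons. It is shown as the stretch of a member that is itself of miRNA form, with the seed in capitals.
miR-1306-5p: cACCACCUccccugcaaacgucc
miR-1306-3p: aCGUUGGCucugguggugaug
The 3p form lies on chromosome 16 from 18284248 to 18284268. Mir1306 was listed at 0 FPKM in both libraries. Exons of Dgcr8 overlap Trmt2a on the other strand, which had 18.8 and 17.1 FPKM, a log2 ratio of -0.13. Scaling both libraries to the same sum of FPKM would raise this ratio by about 0.18, more than its fall.

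Export and dicing were represented by 4 genes. Xpo5 (chromosome 17, 46202782 to 46243598, plus strand) had 34.6 FPKM in the control and 36.7 after knockdown, a log2 ratio of 0.08. Dicer1, the cytoplasmic RNase III (chromosome 12, 104687742 to 104751952, minus strand), had 15.1 and 19.2 FPKM, a log2 ratio of 0.35. Both were higher with the USP21 shRNA, Dicer1 by the larger step, so that the ratio of Xpo5 to Dicer1 went from 2.29 to 1.91. The double-stranded RNA-binding partners of Dicer differed in level by a wide margin. Tarbp2 (chromosome 15, 102518192 to 102523676, plus strand) was the highest of all members in both libraries, at 56.8 and 52.2 FPKM. Prkra (chromosome 2, 76629898 to 76648015, minus strand) had 13.3 and 12.3 FPKM. These were the only members lower with the USP21 shRNA, with log2 ratios of -0.12 and -0.11, and once both libraries were scaled to the same sum of FPKM both were slightly higher instead (0.05 and 0.07). Their ratio to each other does not depend on such scaling, and Tarbp2 was at 4.27 times Prkra in one library and 4.24 times in the other. Of the 31-base words of the Tarbp2 transcript, 53.9% also occur in other annotated genes, chiefly Gm18584. How fragments from such words were assigned is not given in the sources used here, so the level of Tarbp2 is uncertain. For Dgcr8 the share of such words was 9.44%, chiefly with Gm49776. That gene overlaps exons of Dgcr8 on the same strand, whereas no exon overlap was found for Tarbp2. The limit for Dgcr8 is thus of a different kind, and its level is also uncertain. Neither Gm18584 nor Gm49776 is among the symbols listed.

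**Figure D1:**
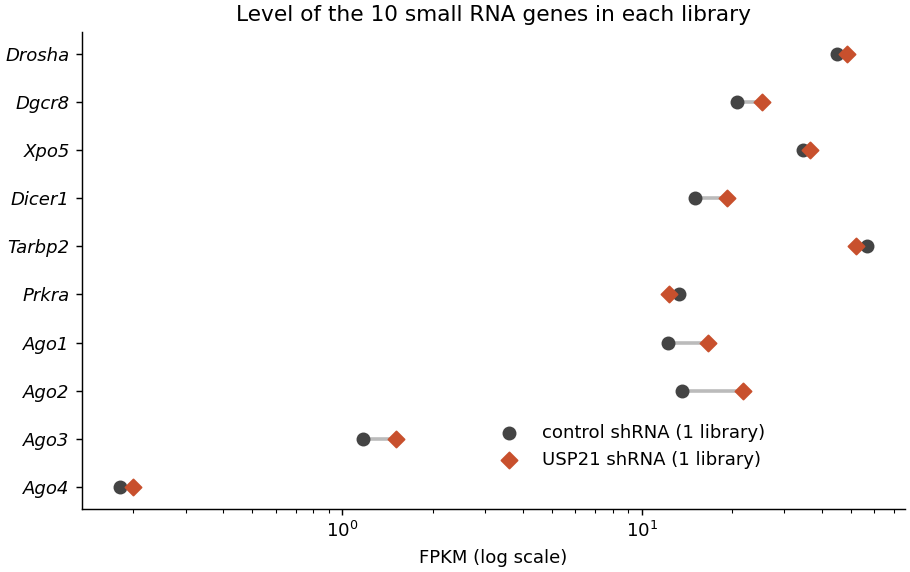
The plot gives the FPKM of each of the 10 genes on a log axis, with a circle for the control shRNA library and a diamond for the USP21 shRNA library, 1 library each and no error bars. Tarbp2 and Drosha lie highest, Ago4 lies under 0.2 FPKM in both, and the widest gap between the symbols is that of Ago2.

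The Argonaute genes included the largest differences and the widest range of levels. Ago2 encodes the Argonaute known in mammals for slicing fully paired targets, and lies on chromosome 15 (73095844 to 73184935, minus strand). It had 13.6 FPKM in the control and 21.8 after knockdown, 1.59 times as much on the scale with 0.1 added, or a log2 ratio of 0.67. Ago1 (chromosome 4, 126435012 to 126468583, minus strand) had 12.3 and 16.6 FPKM, a log2 ratio of 0.43. Ago2 and Ago1 together made up nearly all of the Argonaute signal. Ago3 (chromosome 4, 126331704 to 126429556, minus strand) was low, at 1.17 and 1.51 FPKM, a log2 ratio of 0.35. Ago4 (chromosome 4, 126489541 to 126533472, minus strand) was at 0.180 and 0.199 FPKM, and was the only member under the filter of 1 FPKM in at least one library. Ago1, Ago3 and Ago4 thus lie side by side on chromosome 4, and their control levels ran from 0.180 to 12.3 FPKM. Few words are shared within the family. At most 2.26% of the 31-base words of Ago1, Ago3 or Ago4 occur in another gene, while for Ago2 the share was 6.0%, mostly with Gm6088. Exons of Ago2 overlap Chrac1 on the other strand, which had 27.6 and 25.4 FPKM. Its log2 ratio was -0.12, and 0.08 after the correction for transcript length described below. Whether Chrac1 fragments add to the Ago2 value was not tested.

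Next, the Argonaute genes were summed, since FPKM is per length. The sum was 27.2 FPKM in the control and 40.1 after knockdown, a log2 ratio of 0.56. The 6 genes of cutting, export and dicing summed to 185.7 and 194.2 FPKM, 1.05 times as much. The Argonaute share of all 10 members was therefore 12.8% in the control and 17.1% after knockdown, a comparison that the scaling between the libraries cannot alter. Transcript length does alter it. After the correction for length described below, the Argonaute log2 ratio was 0.26 and the share after knockdown 14.8%, or 0.48 and 17.1% with coding length. Within the family, Ago2 held 50.04% and 54.3%, Ago1 45.01% and 41.4%, Ago3 4.28% and 3.77%, and Ago4 0.66% and 0.50%. Ago2 was below Dicer1 in the control library (0.902 times its FPKM) and above it with the USP21 shRNA (1.13 times). The order of the 10 levels was otherwise the same, apart from Ago1 and Prkra, which also changed places. With 1 library a group, no neighbours in this order can be said to differ.

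**Figure D2:**
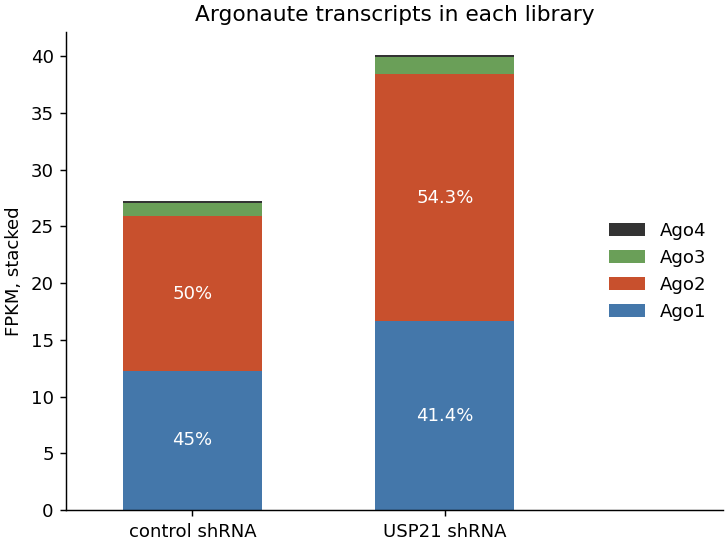
Stacked bars give the FPKM of Ago1 to Ago4 in each of the 2 libraries (vertical axis, from 0), with the shares of Ago1 and Ago2 printed inside. The whole bar is 27.2 FPKM for the control shRNA and 40.1 for the USP21 shRNA, and Ago3 and Ago4 form the thin layers on top.

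To place these differences, the members were set beside all genes of at least 1 FPKM in either library, 11927 genes, of which 9 were members. Ago2 was the 1 member of 9 at least 1.5-fold higher, and 7.77% of all these genes were. No member was 1.5-fold lower, against 6.46% of all genes, and none was 2-fold higher, against 2.3%, or 2-fold lower, against 2.03%. The count of members past a fold was therefore near that of genes at large. The log2 ratio of Ago2 exceeded that of 94.0% of all genes kept, that of Ago1 87.3% and that of Dicer1 82.7%. In direction, 7 of the 9 members were above 0, against 50.4% of all genes kept, and their median log2 ratio was 0.27, against 0.00 (0.003) for all genes. Scaling both libraries to the same sum of FPKM raised the median of all genes kept by 0.18, to 0.18, and that of the members to 0.45. It takes Ago1 as well as Ago2 past 1.5-fold, while the number of all genes past 2-fold in either direction went from 516 to 754. The filter of 1 was applied to the scaled values, which are higher than the FPKM in both libraries. Genes of lower level therefore entered the second count, and the 2 counts are not of the same set of genes. The share of all genes 1.5-fold higher with this scaling is not given here, so the 2 members have no background.

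**Figure D3:**
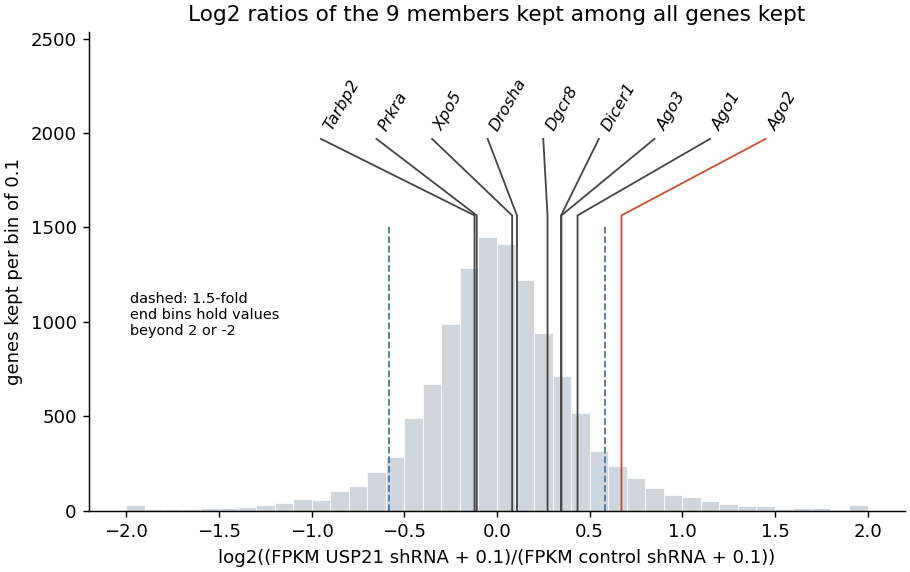
Grey bars count all genes kept by their log2 ratio, USP21 shRNA over control shRNA, in bins of 0.1, and lines mark the 9 members kept. All members but Ago2 (0.67) lie between the dashed lines of 1.5-fold, and 7 of the 9 lie to the right of 0.

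Transcript length moved with these values. Over the genes kept, the log2 ratio followed the length of the reference transcript with a Spearman rho of 0.32 across genes, which are not replicates. Transcripts of at least 4000 bases had a median log2 ratio of 0.14, 67.9% of them were above 0 and 11.5% were 1.5-fold higher. Of the 9 members kept, 7 had such transcripts, from 4320 bases for Dgcr8 to 15595 for Ago3, and these were the 7 above 0. Transcripts under 2000 bases had a median of -0.13, with 34.1% above 0, and this class held the other members, Tarbp2 (1523 bases) and Prkra (1614 bases), which were below 0. So the direction of each member was that of most genes of its length. After a smoothed (lowess) correction for transcript length the median of the members was 0.03, 5 of the 9 were above 0, and none was 1.5-fold higher, against 7.18% of all genes. Ago2 kept a log2 ratio of 0.31, Ago1 of 0.24 and Dgcr8 of 0.20. Dicer1 was at 0.07 and Drosha at 0.03, and the values of Xpo5, Ago3 and Ago4 turned to -0.02, -0.04 and -0.08. The reference lengths are those of GENCODE M21, where most of the Ago2 transcript (13800 bases) is 3′ UTR (11064 bases), and need not be those behind the FPKM. With coding length in place of transcript length, Ago2 was at 0.59, just past 1.5-fold, and Ago1 at 0.36. The share of all genes 1.5-fold higher with coding length is not given here, so this call has no background.

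**Figure D4:**
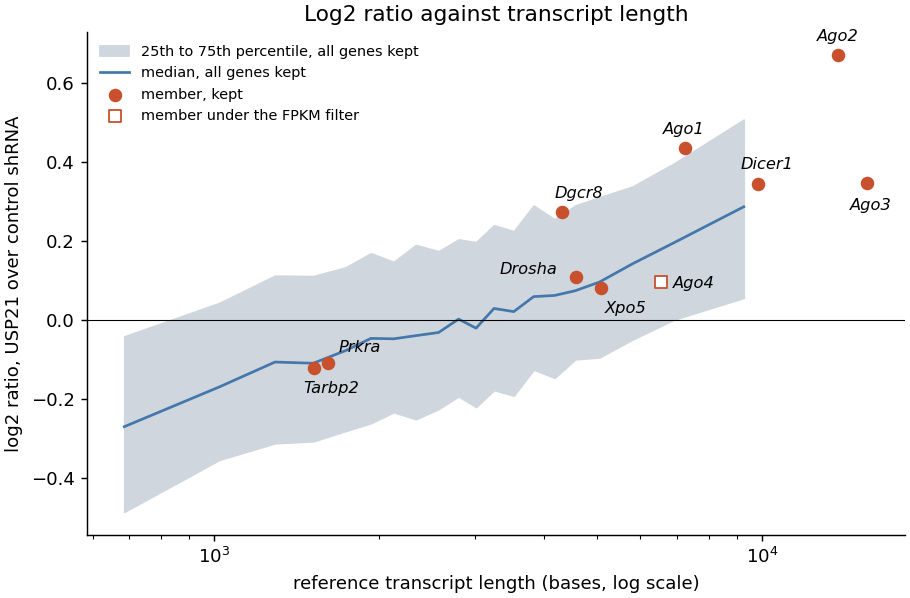
Log2 ratio (vertical axis) is plotted against reference transcript length in bases (log axis), with the median and the middle part of all genes kept as a line and a band over 20 groups of equal size. Tarbp2, Prkra, Drosha and Xpo5 sit on or near the line, Dgcr8 (0.27) and Ago1 (0.43) at the upper edge of the band, and Ago2 (0.67) and Ago3 (0.35) are longer than the typical gene of the last group.

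The transcripts of the members were then searched for letters that pair with the seeds shown above, since Argonaute-bound miRNAs act on such sites and the pathway is known to regulate its own genes. The sites were GCACTTT for miR-17 and miR-20a, TTTGCAC for miR-19, GTGCAAT for miR-92a, GCACCTT for miR-18a, AGCACTT for miR-294 and its relatives, CTACCTC for let-7 and ATGCTGC for miR-103 and miR-107, on the transcript strand only. GCACTTT and AGCACTT share 6 letters and can overlap, as can TTTGCAC and GCACTTT. The 3′ UTR of Ago3 (12742 bases) held 13 sites, that of Ago2 8, that of Ago1 (4491 bases) 4 and that of Dicer1 (3851 bases) 3. Dgcr8 and Tarbp2 held 2 each, Ago4 held 1, and Drosha (168 bases), Xpo5 and Prkra held none. The longest UTRs held the most sites, at 0.723 sites per 1000 bases in Ago2, 1.02 in Ago3 and 0.779 in Dicer1, while the short UTR of Tarbp2 (334 bases) reached 5.99. Only Ago3 held sites for miR-294 (3) and miR-92a (2), and a let-7 site was found in Tarbp2, Ago2 (3 sites) and Ago3.

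In Ago1 the sites of miR-19 and miR-17 overlap, and the same overlap occurs in Ago3 at 2 places. These stretches are shown because they join 2 seed groups of the Mir17hg cluster in a single run of letters. Capitals mark the miR-19 site, and its last 4 letters with the 3 that follow make the miR-17 site.
Ago1: atccattgacaTTTGCACtttcagacgtga
Ago3, first: gttcagggaacTTTGCACtttgtaagtcat
Ago3, second: tgtgtgcaactTTTGCACtttgcccagatg
The site of Ago1 lies on chromosome 4 from 126438533 to 126438539, and those of Ago3 from 126343703 to 126343709 and from 126339002 to 126339008 (GRCm38, minus strand). For Dicer1 the site of miR-103 and miR-107 is given (chromosome 12, 104690170 to 104690176), and for Tarbp2 and Ago2 a site of let-7 each (chromosome 15, 102523444 to 102523450 and 73097983 to 73097989), with the site in capitals.
Dicer1: tgcttcatgtaATGCTGCacttaggttcaa
Tarbp2: aggtgccatctCTACCTCtgacacagcctg
Ago2: acaatgtggatCTACCTCagttaaacagtt
To compare equal lengths, the first 1000 bases of each 3′ UTR of at least that length were taken, 8720 genes with 7 members among them. The miR-19 site was in 9.50% of them and in 2 of the 7 members, that of miR-103 and miR-107 in 8.56% and in 2 members, that of miR-17 in 9.83% and in 1 member, and that of miR-18a in 5.93% and in 1 member. The sites of miR-294 (11.1%), let-7 (6.49%) and miR-92a (4.61%) were in none of the 7. A match of letters is a description and not a measured site.

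The partners of the members were described from lists of other genes of the pathway, to be read against all genes kept, with a median log2 ratio of 0.00 (0.003), 7.77% of them 1.5-fold higher and 6.46% lower. Among 11 Microprocessor cofactors, 1 was 1.5-fold higher and none lower, with a median log2 ratio of -0.04. The highest was Ddx17, an RNA helicase of the complex, with 112.9 and 179.4 FPKM (log2 ratio 0.67), and the lowest Erh, a small partner of DGCR8, with 445.9 and 316.6 FPKM (-0.49). Of 10 exportins and genes of the Ran cycle, which powers nuclear export, 1 was 1.5-fold higher and none lower. This was Xpo4, at 14.4 and 24.8 FPKM, while Ranbp1 was lowest at 518.8 and 403.5 FPKM. None of 10 genes that bind, tail or edit miRNA precursors passed 1.5-fold. Lin28b, a blocker of let-7 processing, was the highest of them (7.50 and 10.6 FPKM, log2 ratio 0.49) and Zc3h12a, an RNase that cuts precursor loops, the lowest (11.01 and 8.08 FPKM, -0.44).

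Downstream of Argonaute, 2 of 26 RISC cofactors and effectors were 1.5-fold higher and none lower, against 7.77% and 6.46% of all genes kept, at a median log2 ratio of -0.04. The highest was Tnrc6a, which encodes a GW182 scaffold that binds Argonaute, with 15.4 and 24.5 FPKM (0.66). The other past 1.5-fold was its relative Tnrc6c, at 10.3 and 15.6 FPKM. Ipo8, an import receptor that binds Argonaute, was the lowest, with 32.02 and 25.1 FPKM (-0.35). Of 20 genes of deadenylation, decapping and decay, 3 were 1.5-fold higher and none lower, beside the same shares of all genes, with a median log2 ratio of 0.12. Dcp1b, a decapping activator, was the highest at 2.13 and 3.97 FPKM (0.86), followed by the decapping enzyme gene Dcp2 (18.9 and 30.99 FPKM) and the exonuclease gene Xrn1 (3.60 and 5.74 FPKM). Rqcd1, a subunit of the CCR4-NOT deadenylase, was the lowest (71.7 and 48.2 FPKM, -0.57). After correction for transcript length Dcp1b was at 0.85, and it was the only gene in the lists of this and the preceding paragraph still 1.5-fold higher. Ddx17 (0.58), Xpo4 (0.54) and Xrn1 (0.54) lay just under 1.5-fold, with Dcp2 at 0.47, Tnrc6a at 0.44 and Tnrc6c at 0.35.

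The piRNA pathway is the germline relative of this machinery, built on PIWI rather than AGO proteins. Of its 15 listed genes 10 were kept, while Tdrd1, Tdrd6, Tdrd9, Asz1 and Henmt1 lay under the filter. Of the 10, 9 were lower with the USP21 shRNA, while 50.4% of all genes kept were above 0. Among the 9, Piwil4 (-0.14), Ddx4 (-0.02) and Gtsf1 (-0.03) fell by less than the 0.18 that equal sums of FPKM add. The count of 9 therefore depends on the scaling. The median log2 ratio was -0.33. It was -0.32 after correction for length and -0.07 with equal sums of FPKM, where Tdrd1 also passed the filter. Mael, a germline factor of transposon silencing, was the single one past 2-fold, with 38.9 FPKM in the control and 15.5 after knockdown (log2 ratio -1.32). Of all genes kept, 2.03% were 2-fold lower. Piwil2, the gene of a PIWI protein, was the 1 gene of the 10 above 0, at 10.9 and 14.2 FPKM (0.38).

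Known targets were taken last. Of 9 genes described as targets of the miR-290 and miR-302 families, 2 were 1.5-fold higher, none was 1.5-fold lower and 5 were above 0, against 7.77%, 6.46% and 50.4% of all genes kept, with a median log2 ratio of 0.05. Lats2, a Hippo pathway kinase, had 1.28 and 3.38 FPKM and was past 2-fold (log2 ratio 1.34), as were 2.3% of all genes kept. Its control level was near the filter and above that of only 6.0% of genes kept. Ei24 had 59.1 and 91.8 FPKM (0.64). Cdkn1a, the cell cycle inhibitor p21, went the other way at 52.0 and 35.0 FPKM (-0.57). Of 9 let-7 targets none passed 1.5-fold and the median was 0.03. Trim71 was the highest of these, at 33.3 and 46.4 FPKM (0.48), and Ccnd1 the lowest, at 59.3 and 48.3 FPKM (-0.30).

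**Figure D5:**
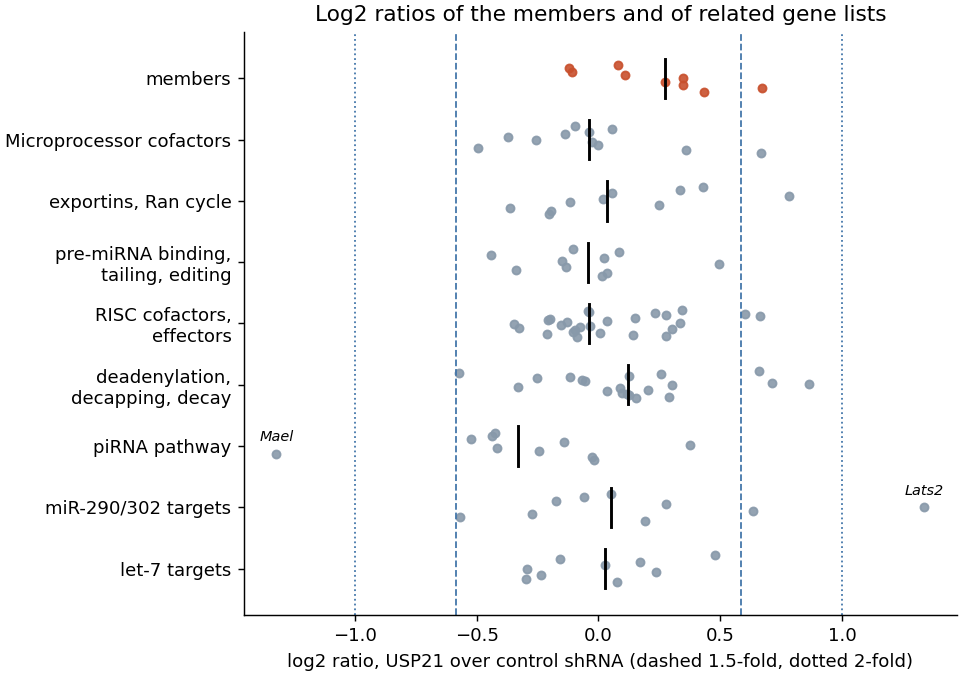
Each point is the log2 ratio of a kept gene of the named list, USP21 shRNA over control shRNA, with 1 library per group, and the black bar is the median of the list. The members (top row, 9 genes) have a median of 0.27, and the 2 genes past the dotted 2-fold lines are Mael (-1.32) and Lats2 (1.34).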

How the data were processed

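The authors deposited FPKM values, 1 per gene symbol and library. The submitters' processing notes name CASAVA 1.8.2, TopHat2 2.0.14, Cufflinks 2.2.1 and the build mm9, without role or order. The gene annotation and any scaling between libraries are not given in the sources used here. FPKM gives no counts, so the depth is unknown. Among 1439 genes with low values, which move in steps of 1 fragment, a step was smaller with the control shRNA, whose library was by this measure 1.23 times as deep. Log2 ratios used a pseudocount of 0.1 FPKM and genes of at least 1 FPKM in at least one library. No test is possible with 1 library per group. The members and lists were chosen with earlier results of these data known. All members, the highest and lowest gene of each list and every list gene past 2-fold are named, with others named after their values were seen. The search for seed sites was also added after the values were seen.

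Transcripts, 3′ UTRs and gene positions came from GENCODE M21 (GRCm38, the transcript with the longest coding sequence), found for 23500 symbols and 99.3% of genes kept. Coordinates are GRCm38 throughout and were not joined to mm9. The lowess span was 0.3. Alternatives were pseudocounts of 1 and 0.01, filters at 5 and 0.1 FPKM or none, equal sums, a median of 0, and corrections for transcript or coding length. With equal sums, the pseudocount and the filter were applied to the scaled values, so the genes kept changed too. The scripts were tested on simulated data. Python 3.11.15, numpy 2.4.6, pandas 2.3.3, statsmodels 0.14.6 and matplotlib 3.10.9 were used.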

Additional observations from a re-analysis of the deposited data

How the results depend on the processing

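A value was taken as moved where it changed by at least 0.1 on the log2 scale, 1 percentage point for a share or 1.5 times for a count, since no replicate spread exists. The correction for coding length, and that of the Argonaute sum for either length, were added after seeing the data. The median log2 ratio of the members was 0.273, and 0.448 with equal sums of FPKM, 0.025 after correction for transcript length and 0.134 for coding length. Members 1.5-fold higher numbered 1, or 2 with equal sums and 0 after correction for transcript length. The shares of all genes were 7.77% without and 7.18% with that correction, and the share with equal sums is not given here. The summed Argonaute log2 ratio was 0.733 with equal sums and 0.264 after correction for transcript length, and the Ago2 share was 46.8% and 51.6% with 1 FPKM added to each gene. All genes changed 2-fold numbered 516, or 208 with a pseudocount of 1, 216 with a filter at 5 FPKM, and 980 with a filter at 0.1 FPKM or none. Of 60 recomputed log2 ratios of single members, 40 moved less, 13 moved and 7 changed sign. Those that changed sign were Tarbp2 (0.054) and Prkra (0.066) with equal sums, Xpo5 (-0.023), Ago3 (-0.043) and Ago4 (-0.077) after correction for transcript length, and Drosha (-0.051) and Xpo5 (-0.057) for coding length. List medians changed sign with equal sums for Microprocessor cofactors (0.137), precursor binding genes (0.129) and RISC cofactors (0.139), and after correction for transcript length for exportins (-0.065, and -0.087 for coding length) and let-7 targets (-0.045). Leaving out a replicate was not possible. No paired analysis was possible because each group has 1 library. Low levels such as that of Ago4 cannot be given a counting error from FPKM alone.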
